A study of Equus caballus with 4 samples.

Results

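Mitogen-activated protein (MAP) kinases are the last tier of a relay of kinases that carries stress and growth signals to the nucleus. A MAP kinase kinase kinase (MAP3K) phosphorylates a MAP kinase kinase (MAP2K), which in turn phosphorylates a MAP kinase, and kinases of the MAPKAPK family act below the MAP kinases. In skeletal muscle, p38 (MAPK14) is known for its part in the onset of myoblast differentiation, and the thioredoxin-regulated MAP3K5 (ASK1) is a classical sensor of hydrogen peroxide. Most of this relay is switched by phosphorylation, which an expression array does not measure.

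The genes described here are 9 kinases of stress signalling, namely MAP3K5, MAP3K8, MAP2K3, MAP2K6, MAPK3, MAPK8, MAPK9, MAPK14 and MAPKAPK2. They were taken as the non-control probes whose gene symbol in the scanner files was one of these names. By that rule 8 of the 9 genes were found, out of 13494 named genes on the array, and they had 9 probes, a pair for MAPK14 and 1 for each of the others. MAPKAPK2 had no probe under its symbol. It is covered by 5 probes that carry only a transcript name and are described as mitogen-activated protein kinase-activated protein kinase 2, and these are given separately.

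The RNA came from primary satellite cells of the horse (equine satellite cells, ESC), the stem cells of skeletal muscle, which were isolated from m. semitendinosus and differentiated to day 3. Cells of the HMB-treated group received 50 uM beta-hydroxy-beta-methylbutyrate (HMB), a leucine metabolite, for 24 h, with 3 mM H2O2 in the last 1 h. The control received the same H2O2 without HMB, so H2O2 is common to both groups and its own effect is not part of the comparison. Each of 4 two-colour arrays held HMB-treated RNA in Cy5 and control RNA in Cy3 and gives 1 ratio, positive where the signal was higher with HMB. Dyes were not swapped, so a dye effect and a treatment effect cannot be told apart. All arrays lay on 1 slide, and the labels number the HMB cultures 1 to 4 but give the control as the first replicate on every array. The control may therefore be a single RNA. The methods describe selecting the culture that scored best in viability and fusion, so the 4 arrays may all come from 1 horse. The p-values then measure the spread between these 4 arrays.

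A probe was tested where 1 channel was well above background on all 4 arrays. A change was called at an FDR-adjusted p of at most 0.05 in limma with a fold change (FC) of at least 1.3, which is 0.38 on the log2 scale. Of 24670 probes tested, 28.6% were called, 12.1% higher and 16.4% lower with HMB. By the brightest tested probe of each named gene, 27.3% of 8408 genes were called, 10.1% higher and 17.2% lower. Correlations of the log2 ratios between arrays, across tested probes, ranged from 0.84 to 0.92. Of the myogenic markers, 6 of 8 tested were called lower, among them DES, MYH3 and MYF5, and none higher. Of the fibroblast markers, 5 of 7 tested were called higher, PDGFRA, DCN, LUM, THY1 and FAP, and none lower. The collagens COL1A2 and COL3A1, at log2 ratios of -0.23 and 0.06, were not called. The 9 probes of COL1A2 ran from -0.40 to -0.06, and 3 of the 7 probes of COL3A1 were called higher. MYOD1 and MYOG, regulators that define the myogenic lineage, were above background in both channels on every array, with log2 ratios of 0.32 and 0.03 that were not called. These marker shifts accompany every result below, and their part in the kinase values was not tested.

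Against that background of wide change, 1 of the 8 tested member probes was called. This was MAP3K8, higher with HMB but measured above background in the HMB-treated channel alone, while MAP3K5, MAP2K3, MAPK3, MAPK8, MAPK9 and both MAPK14 probes were not called. MAP2K6 was not well above background in either channel on any array. The results turn on 3 probes and on 1 probe with no symbol, whose sequences follow in the sense direction, 5′ to 3′, in lower case throughout. The MAP3K8 probe joins separate blocks of EquCab1 between chr29:6643045-6646979 on the plus strand, so it crosses at least 1 intron. The MAPK14 pair lies at chr20:29521142-29521201 and, in joined blocks, chr20:29510873-29525468, both on the plus strand, and the block ends of the second probe lie to either side of the first. The last sequence lies beyond MAPK14, in joined blocks at chr20:29559927-29560240, also on the plus strand.
MAP3K8 A_69_P012036: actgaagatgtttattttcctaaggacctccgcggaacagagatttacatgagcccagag
MAPK14 A_69_P038636: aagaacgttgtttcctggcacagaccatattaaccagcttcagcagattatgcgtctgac
MAPK14 A_69_P038631: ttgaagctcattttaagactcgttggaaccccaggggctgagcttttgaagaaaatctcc
unnamed A_69_P120478: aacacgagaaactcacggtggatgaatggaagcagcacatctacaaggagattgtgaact

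MAP3K8 (Tpl2 or COT) is the MAP3K that links inflammatory receptors to the ERK branch. Its log2 ratio was 1.60, 1.15, 1.98 and 0.78 on arrays 1 to 4. All 4 values were above the FC threshold, with a mean of 1.38 ± 0.52 (SD, n = 4) and an adjusted p of 0.00195 in limma. The control signal was 21.2, 20.8, 26.6 and 24.0 intensity units, and the HMB-treated signal on the same arrays was 64.3, 46.1, 105 and 41.4. The channels did not overlap, but the control channel was not well above background on any array, so the control level is not resolved. The probe entered the test through its HMB-treated channel alone, and its mean and p rest on control values below that limit. Against the lowest Cy3 signals that were well above background, the mean of MAP3K8 under the deposited background correction was 2.56-fold higher with HMB. The limit on each array is the single lowest such signal, or the MAP3K8 signal where that is higher. Its mean of 4.54 in log2 units barely exceeds the measured control, so 2.56 is not a strict lower bound. This value carries no interval for the spread between arrays and does not hold under the other background steps given next. It takes the channels after quantile normalization of the mean intensities, where the means were 5.90 for Cy5 and 4.52 for Cy3 in log2 units, and it is open to dye bias because no dyes were swapped. The log2 ratio was 0.33, and not called, after normexp correction with an offset of 50 units added to both channels (adjusted p = 0.0265 in limma). It was 0.46 without background correction (adjusted p = 0.00348 in limma). Over 17 alternatives the adjusted p ran from 0.0014 to 0.0462, the last with the unmoderated test that the methods name.

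The immune markers bear on MAP3K8, since its best known setting is the macrophage. Of 8 listed, 6 had a probe and 2 were tested. CD68, a lysosomal protein of macrophages that other cells also make, had a log2 ratio of 0.88 ± 0.20 (SD, n = 4) and was called higher, while CD14 at 0.20 ± 0.19 was not called. AIF1, CSF1R, ITGAM and CD3E were each not tested for want of a channel above background on all arrays, and the 6 endothelial markers were likewise not tested. The part of such cells in the MAP3K8 value was not tested.

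**Figure D1:**
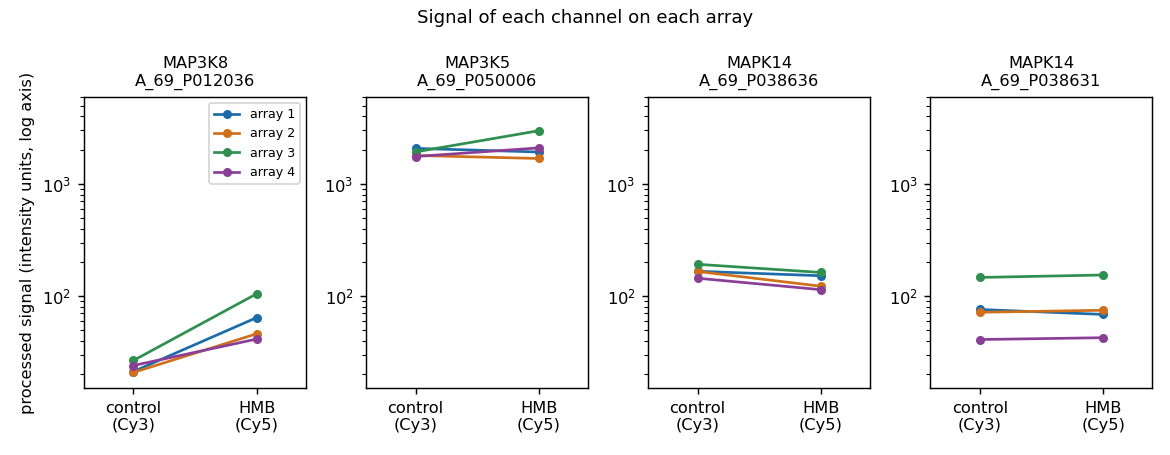
Processed signal (intensity units, log axis) in the control (Cy3) and the HMB-treated (Cy5) channel, 1 line per array, for the probes of MAP3K8 and MAP3K5 and for both probes of MAPK14. The MAP3K8 lines all rise from control signals of 20.8 to 26.6, and the lines of the other probes stay near level or cross.

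MAP3K5, held inactive by reduced thioredoxin and released by peroxide, had log2 ratios of -0.11, -0.09, 0.63 and 0.26. The arrays disagreed in sign, at 2 against 2, and the mean was 0.17 ± 0.35 (SD, n = 4) with an adjusted p of 0.323 in limma. Its control signal was 2074, 1792, 1928 and 1755 units and its HMB-treated signal 1925, 1685, 2981 and 2095, so it was well measured and the high array 3 value lies in the HMB-treated channel. The 95% interval, -0.15 to 0.49, extends past an FC of 1.3 on the higher side.

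MAP2K3 and MAP2K6 are the kinases that activate p38. MAP2K3 had log2 ratios of -0.27, -0.07, -0.18 and -0.44, below 0 on 4 of 4 arrays. The mean was -0.24 ± 0.16 (SD, n = 4), and with an adjusted p of 0.0456 in limma it met the FDR threshold but not the FC threshold. Its probe maps to EquCab1 chrUn:247031076-247031135, among sequence not placed on a chromosome. The MAP2K6 signals were 12.2, 4.99, 5.32 and 16.4 units in the control and 11.8, 6.61, 6.35 and 30.0 in the HMB-treated channel, not well above background in either, and no change is read from them.

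MAPK3 (ERK1) is the MAP kinase of the growth factor branch. Its log2 ratios were -0.23, -0.21, 0.09 and -0.29, a mean of -0.16 ± 0.17 (SD, n = 4) with an adjusted p of 0.157 in limma. MAPK8 (JNK1) and MAPK9 (JNK2) are the stress kinases that phosphorylate Jun. The MAPK8 ratios were 0.03, -0.37, -0.20 and 0.02, with a mean of -0.13 ± 0.19, and those of MAPK9 were 0.08, -0.23, -0.05 and 0.09, with a mean of -0.03 ± 0.15 (SD, n = 4 each). Neither was called, at adjusted p-values of 0.268 and 0.802 in limma. The 95% intervals of MAPK3 (-0.36 to 0.04), MAPK8 (-0.34 to 0.08) and MAPK9 (-0.21 to 0.16) all lay within an FC of 1.3 in either direction. The signals of MAPK8 were the lowest of these, from 41.2 to 93.2 units over both channels, against 126 to 169 for MAPK3 and 394 to 627 for MAPK9. Each signal belongs to its own probe, and levels are not comparable between genes on this scale.

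MAPK14, p38 alpha, is the only member measured by a pair of probes with a symbol, and the probes name different Ensembl transcripts. The brighter probe, A_69_P038636, had log2 ratios of -0.13, -0.44, -0.24 and -0.34, below 0 on 4 of 4 arrays. Its mean was -0.29 ± 0.13 (SD, n = 4), with a 95% interval of -0.46 to -0.11 and an adjusted p of 0.0189 in limma, so it met the FDR threshold and missed the FC threshold. The probe A_69_P038631 had ratios of -0.15, 0.06, 0.07 and 0.05, a mean of 0.01 ± 0.10 (SD, n = 4) with an adjusted p of 0.912 and an interval, -0.15 to 0.17, that lay within an FC of 1.3. Averaged over both probes, the MAPK14 value was -0.14. The difference between the probes was -0.01, 0.50, 0.32 and 0.39 on arrays 1 to 4, absent on array 1 and present on the others. Its mean was 0.30 ± 0.22 (SD), and an exact two-sided sign-flip permutation test gave p = 0.25, where the smallest p that 4 arrays allow is 2 in 16 sign patterns. MAPK14 is known for a pair of mutually exclusive exons in its kinase domain; which transcript forms these probes read was not tested. The signal of A_69_P038631 also varied in level between arrays, from 40.9 units on array 4 to 146 on array 3 in the control channel and from 42.5 to 154 on the same arrays in the HMB-treated channel.

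MAPKAPK2 (MK2), the kinase below p38 that phosphorylates the small heat shock protein HSPB1, was read by the 5 probes named only by description, on EquCab1 chromosome 5. They are staggered by 1 base each over 1 target and are not replicates of one another. The first of them, A_69_P073316, had log2 ratios of -0.28, 0.02, -0.16 and -0.28, a mean of -0.18 ± 0.14 (SD, n = 4) with an adjusted p of 0.0990 in limma. The means of all 5 rounded to -0.18, and none was called. The probes with the highest and lowest means differed by 0.01 ± 0.04 (SD, n = 4).

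**Figure D2:**
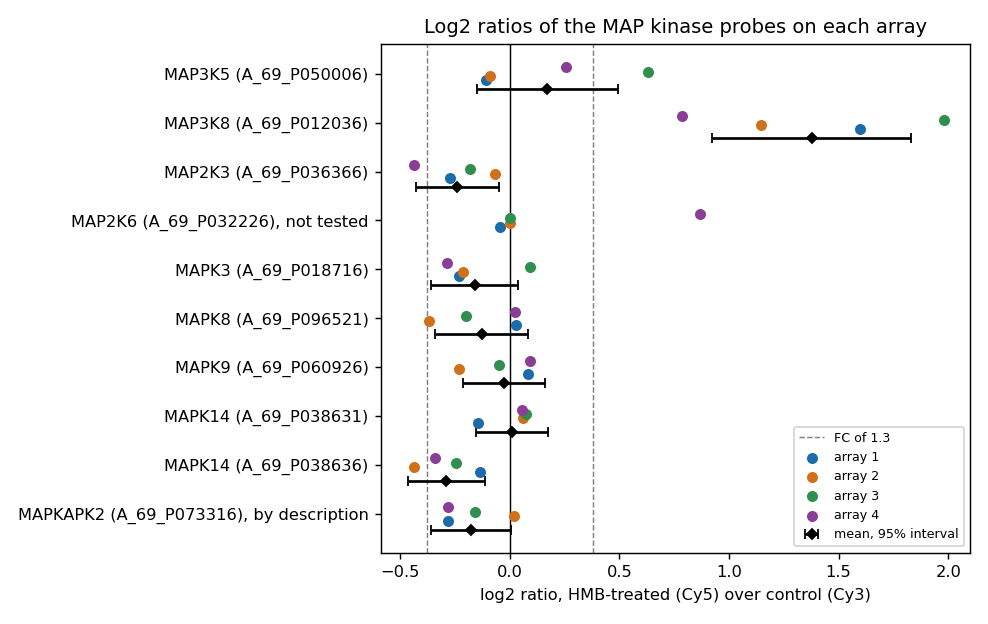
Log2 ratio of HMB-treated (Cy5) over control (Cy3) for each member probe, with a coloured point for each array, a black diamond with its 95% interval for the limma mean, and dashed lines at an FC of 1.3. MAP3K8 lies to the right of the dashed lines on all 4 arrays, with a mean that rests on control signals not well above background, MAP2K6 was not tested, and the means of the other probes lie between -0.29 and 0.17.

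Apart from MAP3K8, whose control level is not resolved, the genes ordered by mean log2 ratio ran MAP3K5, MAPK9, MAPK8, MAPK3, MAP2K3 and MAPK14, the last by its brighter probe. Differences between neighbours in this order are given as a description, with no test, since the order comes from the same means. MAPK9 exceeded MAPK8 on 4 of 4 arrays, by 0.10 ± 0.05 (SD). The other neighbours differed by 0.03 to 0.20, each by less than the SD of the difference over the arrays, and their order is not resolved.

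**Figure D3:**
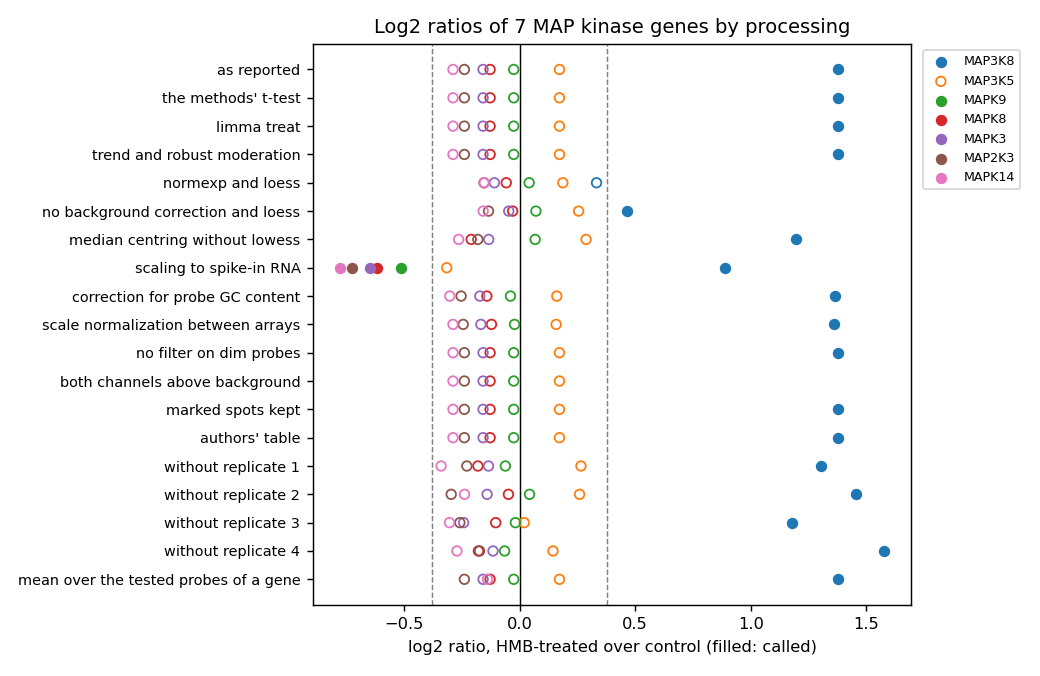
Mean log2 ratio of the 7 tested member genes (horizontal axis) under each processing alternative (rows), filled where called and open where not, with dashed lines at an FC of 1.3. MAP3K8 moves from 1.38 to 0.33 after normexp correction, and scaling to spike-in RNA shifts every gene to the left.

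That scaling moved the median of all tested probes from -0.07 to -0.56 in log2 units. Under it MAP2K3, MAPK3, MAPK8, MAPK9 and MAPK14 passed the thresholds as lower, at -0.73, -0.65, -0.62, -0.51 and -0.78, and MAP3K8 remained higher at 0.89. Relative to the median of all probes the members kept their places, since each array is shifted by 1 constant. Statements about the members therefore hold relative to the bulk of the probes. Of the 7 fibroblast markers tested, 1 was called higher and 2 lower under spike-in scaling.

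Beyond MAPK14 on the same chromosome lies a group of 5 staggered probes with no symbol and the description unknown, found by a search for unnamed probes within 60 kb of a member probe. These were picked out after their values were seen. A_69_P120478, whose sequence is given above, had log2 ratios of 0.82, 0.70, 0.56 and 0.67, and the mean was 0.69 ± 0.11 (SD, n = 4) with an adjusted p of 0.000556 in limma. Its control signal was 204, 161, 225 and 177 units and its HMB-treated signal 361, 262, 331 and 281, with no overlap between the channels. The 5 probes overlap, are 1 measurement in effect, and had means from 0.69 to 0.80, all called higher. The study's table lists A_69_P120478 under MAPK14, but it starts 34.5 kb past the last base of the MAPK14 probes and its ratios lay above those of both on every array. In the RefSeq gene order of the horse assembly TB-T2T, MAPK13, p38 delta, is the next protein-coding gene after MAPK14, and no probe carries MAPK13 as its symbol. Which of these genes the probes read was not tested. Scaling to spike-in RNA left the 5 probes above 0, and none of them was called under it.

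The same search found a single unnamed probe near each of 2 other members. A_69_P108751, 2.75 kb past the MAPK9 probe, had a mean log2 ratio of 0.01 ± 0.09 (SD, n = 4), and was not called. A_69_P012041, 23.3 kb past the MAP3K8 probe, had a mean of -0.36 ± 0.11 (SD, n = 4) and was not called. It names a different Ensembl transcript from the MAP3K8 probe, and its control signal ran from 6323 to 7937 units. Whether it reads MAP3K8 was not tested.

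**Figure D4:**
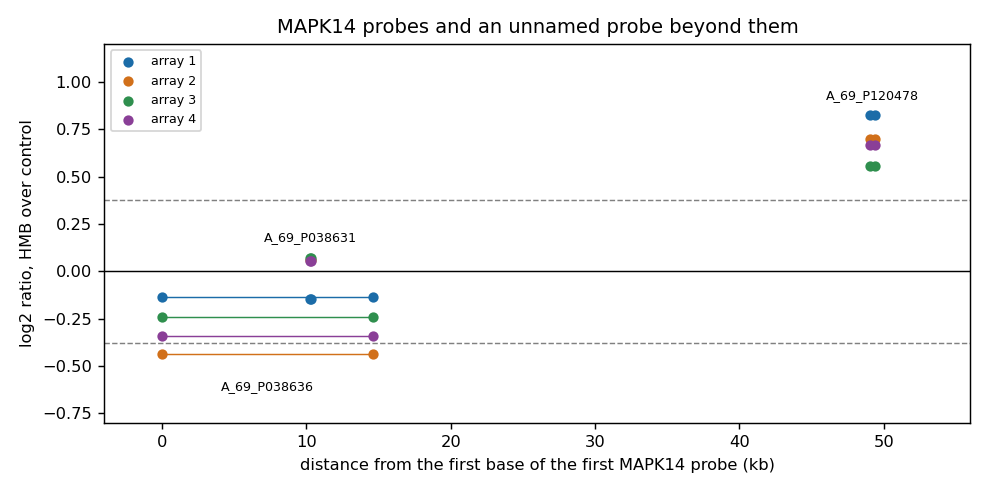
Log2 ratio on each array (vertical axis) against distance along chromosome 20 from the first base of the first MAPK14 probe (kb), with points at both ends of each probe and a line across joined blocks. A_69_P038636 lies below 0 on all arrays, A_69_P038631 near 0, and the unnamed A_69_P120478 between 0.56 and 0.82.

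The other genes of the MAP kinase pathways were taken from a list of 105 symbols in 6 roles, older symbols included, of which 71 had a probe and 54 were tested. Of these, 6 were called higher and 11 lower, against 10.1% and 17.2% of all genes, and their median log2 ratio was -0.11, against -0.09 for all genes. The split between directions depended on the processing, with 5 higher and 5 lower after normexp correction, 6 and 6 without background correction, 5 and 2 when limma's treat asked for an FC above 1.3, and 2 and 39 after spike-in scaling.

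Among MAP3Ks other than the members, 1 of 10 tested was called higher and 3 lower. MAP3K7 (TAK1), which acts below cytokine receptors, had log2 ratios of -0.78, -0.79, -0.63 and -0.44 and fell by 0.66 on average (SD 0.16, adjusted p = 0.00124 in limma), though limma's treat did not call it. MAP3K3 (MEKK3) fell by 0.65 and MAP3K4, the MAP3K that GADD45 proteins activate, by 0.44, but neither was called after normexp correction, without background correction or by limma's treat, nor MAP3K3 by the unmoderated test that the methods name. The MAP3K3 probe was well above background in the HMB-treated channel on 1 of 4 arrays. TAOK3 rose by 0.69 ± 0.09 (SD, n = 4), except under spike-in scaling, where it was not called. MAP3K6 (ASK2), the partner of MAP3K5, and MAP3K14 (NIK) had means of 0.31 ± 0.42 and 0.21 ± 0.32 that were not called.

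No MAP2K was called among the 3 tested, MAP2K1, MAP2K4 and MAP2K5. MAP2K1 (MEK1) had a mean log2 ratio of -0.03 ± 0.10. The brighter probe of MAP2K4 (MKK4), an activator of JNK, had -0.32 ± 0.18 and its other probe 0.16. MAP2K7 was not tested, and no probe carried the symbol MAP2K2.

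Of 5 other MAP kinases tested, 1 was called. MAPK12 (p38 gamma), the p38 form most abundant in skeletal muscle, had log2 ratios of -0.51, -0.36, -0.33 and -0.54 and fell by 0.44 on average (SD 0.10, adjusted p = 0.00308 in limma). It was -0.12 after normexp correction, and was not called there, without background correction or by limma's treat. MAPK11 (p38 beta) had -0.20 ± 0.09, under an FC of 1.3. MAPK10 (JNK3) was not tested.

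Among kinases downstream of the MAP kinases, 1 of 3 tested was called. MAPKAPK3 (MK3), the close relative of MAPKAPK2, had log2 ratios of -1.11, -1.05, -0.91 and -0.91. It fell by 1.00 on average (SD 0.10, adjusted p = 0.000119 in limma), while the MAPKAPK2 probes stayed near -0.18. After normexp correction the MAPKAPK3 value was -0.33 and was not called. MAPKAPK5 had -0.06 ± 0.10 and was not called.

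Among scaffolds and regulators, 3 of 17 tested were called higher and 5 lower. NFKB1, whose p105 precursor holds MAP3K8 protein in an inactive complex, had log2 ratios of 1.04, 0.83, 1.14 and 0.80 and rose by 0.95 on average (SD 0.16, adjusted p = 0.000293 in limma). TRAF2, an adaptor of TNF receptors, rose by 0.80 ± 0.21 (SD, n = 4), except under spike-in scaling, where it was not called. TNIK, a kinase of the germinal centre family, fell by 1.22 (SD 0.19), and its 3 probes were all called lower. GADD45G, a stress-induced activator of MAP3K4, fell by 0.67 (SD 0.19). The other members of its family, GADD45A and GADD45B, were named after their values were seen and fell by 0.54 and 0.51. All 3 GADD45 genes were also lower and called after normexp correction, without background correction and after spike-in scaling, and none was called by limma's treat. GADD45A was also not called by the unmoderated test that the methods name. The remaining calls, LAMTOR3 lower and MAP4K3 higher, were made in 8 and 12 of 17 alternatives. Thioredoxin (TXN), the inhibitor of MAP3K5, had 0.21 ± 0.25 and was not called.

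Among substrates and effectors, 2 of 16 tested were called higher and 1 lower. PLA2G4A, the cytosolic phospholipase A2 that MAP kinases phosphorylate, had log2 ratios between 0.89 and 1.33 and rose by 1.18 on average (SD 0.21, adjusted p = 0.000198 in limma). MAX, the partner of MYC, rose by 0.77 ± 0.21 (SD, n = 4), with all 5 of its probes called, except under spike-in scaling. MEF2A, a muscle transcription factor that p38 phosphorylates, fell by 0.38 (SD 0.17), close to the FC threshold, and was called in 11 of 17 processing alternatives. HSPB1, the substrate of MAPKAPK2, had -0.35 ± 0.05 (adjusted p = 0.00463 in limma) and missed the FC threshold. Over 17 processing alternatives its value ran from -0.839 to -0.006.

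**Figure D5:**
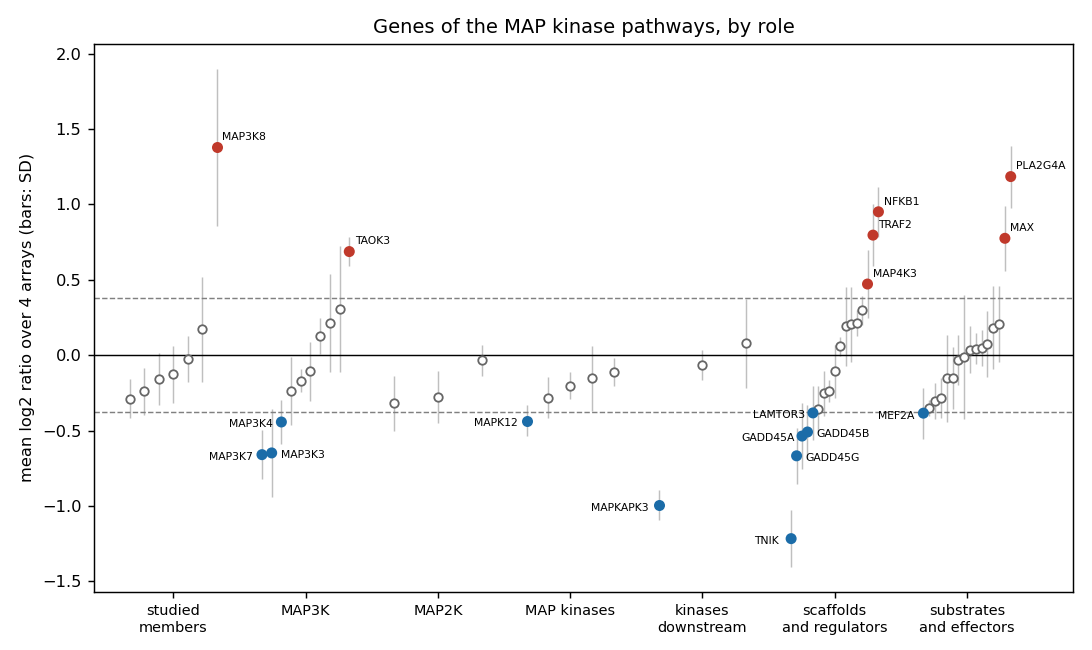
Mean log2 ratio over 4 arrays (vertical axis, bars SD) of the tested member genes and of 54 other pathway genes by role, by the brightest tested probe, red where called higher, blue where called lower and open where not called, with dashed lines at an FC of 1.3. MAP3K8 is the called member at 1.38, and in the other roles the means run from -1.22 for TNIK to 1.18 for PLA2G4A.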

How the data were processed

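The authors deposited 1 Feature Extraction scanner file per array (version 10.10.1.1 per the file headers) of the Agilent horse 4x44K design, with coordinates on EquCab1. LogRatio, the log10 ratio of Cy5 over Cy3 after the authors' background subtraction and lowess dye normalization, was multiplied by 3.32 to give log2 ratios. Processed, mean and background intensity columns, deposited in the same files, gave signals and alternatives. The deposited table of log10 ratios equals them (largest difference 0). Lowess sets the bulk of each array near a log2 ratio of 0, so a change shared by most genes is not visible.

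Control spots and spots marked non-uniform or population outliers were left out, with none of the latter among the probes described. Spots of 1 probe were averaged. A probe was tested if its ratio was present on 3 or more arrays and 1 channel was well above background on all 4. limma 3.58.1 (R 4.3.3) fitted an intercept, with eBayes and Benjamini-Hochberg adjustment over all tested probes, after a test on simulated data. A gene takes its brightest tested probe. The number of arrays limits the precision.

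Symbols came from the files, with 231 probes updated by synonym and 479 named by RefSeq accession, and 15478 of the probes had no symbol. All members were named with every probe, relatives in the MAP kinase families whatever their values (1 of them is not reported here), and in each role the largest 2 rises and 2 falls among called genes of 1 sign on all arrays. The members and lists were chosen with earlier results of these data known. Gene names and neighbours in RefSeq are those of assembly TB-T2T.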

Additional observations from a re-analysis of the deposited data

Results flagged for a closer look

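In 14 probes, the array farthest from the others was compared with the spread of all 4, at a threshold that chance passes in about 5% of groups. The MAP2K6 log2 ratio of 0.87 on array 4 stood apart from values of -0.04, 0.00 and 0.00, in a probe not well above background in either channel on any array, so these are values at the floor and nothing is read from the gap. The MAPK14 probe A_69_P038631 stood apart on array 1, at -0.15 against 0.05 to 0.07 on the others.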

How the results depend on the processing

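The count of 1 called member, in probes and in genes, was the same with the methods' t-test, limma's treat, trend and robust moderation, no background correction, median centring, GC correction, scale normalization, no filter on dim probes, marked spots kept, the authors' table, the mean over probes of a gene and with each array left out. It was 0 after normexp correction and where both channels had to be above background, which leaves MAP3K8 out of the test. It was 7 probes and 6 genes after spike-in scaling. The authors' table holds the same ratios as those used here, so its agreement was fixed in advance. No member spot was marked, so keeping marked spots left the member ratios unchanged. Both are counted in the tallies of alternatives above. For normexp, the offset of 50 units compares with processed MAP3K8 control signals of 20.8 to 26.6 units, and the cause of the lost call was not tested. Leaving out an array gave MAP3K8 log2 ratios of 1.18 to 1.58. Of all called probes, 42.5% were higher, and 54.6% with treat, 55.0% with normexp, 60.1% without background correction, 52.4% with median centring, 6.71% with spike-in scaling, 41.0% with GC correction, 39.9% without the dim filter, 37.1% over gene means and 41.2% to 42.7% with an array left out. The 7046 called probes became 5030 with the methods' t-test, 2822 with treat, 3539 with normexp, 4440 without background correction and 18571 with spike-in scaling. Each ratio sets HMB-treated against control RNA on its own array, and no further block was fitted. The pairing is by array only, since the control may be a single RNA. With 4 arrays and signals near background, changes in MAP2K6, and the size of that in MAP3K8, could not be measured.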

Other observations

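SP1, a transcription factor in the list of substrates, had probes that disagreed: the brighter gave a mean log2 ratio of 0.05, and the other gave 1.16 and was called higher.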
